A study of Drosophila melanogaster with 10 samples.

Results

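The genes that copy the genome and divide the cell were followed in mushroom body neurons of *Drosophila* pupae, cells that no longer divide once they are born. A list of 41 genes was drawn up by role, covering origin licensing, the replicative helicase, DNA synthesis, control of the G1 and S phases, entry into mitosis, the spindle, the checkpoint and cytokinesis. Of these, 29 were read by a probe set annotated to that gene alone, and they are the genes described here, out of 10844 genes with such a probe set on the array. The other 12 (geminin, Mcm7, RnrS, dap, CycA, Cdk1, stg, polo, aurA, Nek2, BubR1 and pav) had no such probe set, so they were not analysed here. Where a gene had several probe sets, the one with the highest mean was used. This choice arose for borr only.

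All animals had 1 genotype, with the transgenes UAS-EcRB1[W650A] and UAS-mCD8::GFP and the driver OK107-GAL4 over + on a yw/w background. The first transgene encodes an ecdysone receptor (EcR) that acts as a dominant negative and the second a membrane-bound green fluorescent protein. Both are expressed from OK107-GAL4, an enhancer trap that is active broadly in the mushroom body lineage. Labelled cell bodies were laser-captured at 5 h after puparium formation (3 arrays) and at 0 h, the white pupa (6 arrays). Each array pooled 40 captures of about 100 cell bodies, and the labels do not say from how many animals. A further array carries labels for both ages and was put in neither group. The y,w arrays that the series design names were not analysed here. The dominant negative receptor is present at both ages, so the comparison is one of age under that receptor and not of receptor function.

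Before S phase, the origin recognition complex, Cdc6 and the Cdt1 homologue dup load the MCM helicase onto origins, and cyclin E with Cdk2 then allows the origins to fire. The transcription factor E2f1 drives expression of many of these genes, PCNA and the ribonucleotide reductase subunits among them. In mitosis, the B-type cyclins act with Cdk1, kinesin-5 separates the spindle poles, and anaphase starts when the anaphase-promoting complex with its activator fzy destroys the securin pim. In the mushroom body lineage, neuroblasts go on dividing through the larval and pupal stages while their neuron progeny are postmitotic. Many of these proteins are regulated by phosphorylation and degradation, which an mRNA measurement does not read.

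All values are log2 signals, and differences are 5 h minus 0 h on that scale. In the fit by limma over 13966 probe sets, 174 differed between the ages at a Benjamini-Hochberg adjusted p under 0.05. The 0 h arrays were split by replicate number into 2 sets of 3, replicates 1 to 3 and replicates 4 to 6. The labels name no batch for these sets. Results are also given against each set. The 3′ bias of actin, the 3′ minus the 5′ control probe set and a sign of RNA quality, was 8.55 ± 0.08 over the 5 h arrays (SD, n = 3), against 7.81 ± 0.28 over the 0 h arrays (SD, n = 6; two-sided exact permutation p = 0.0119, the smallest that the 84 arrangements allow). The labels call the arrays biological replicates. Signal from a captured pool cannot tell fewer cells of a type from less RNA per cell.

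About as many members read above as below the background of the array. Background was taken as the highest group mean among 23 control probe sets for mouse, yeast and bacterial transcripts, 4.43 log2. By this measure 16 of 29 members were above background at 5 h and 15 of 29 at 0 h, beside 47.6% and 48.6% of all probe sets. A single control, a bacterial one, set this level, and the next one read 3.63. Spiked hybridisation controls were left out, and whether the bacterial transcripts were added to the RNA was not established. Against the highest of the mouse and yeast controls alone, 3.46, 22 of 29 members were above background at 5 h and 22 at 0 h.

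Averaged over the 9 arrays, 15 members lay above background: Mcm3, dpa, Mcm5, PCNA, RnrL, Cdk2, E2f1, CycB, CycB3, Klp61F, borr, fzy, tum, scra and feo. Mcm6 was above it at 5 h and below it at 0 h. All 3 measured licensing genes (Orc1, Cdc6 and dup), Mcm2, the cyclins CycD and CycE, the phosphatase twe, the kinases aurB and Bub1, and Incenp, pim, thr and pbl were below background at both ages. For those 13 genes a difference between the ages is a difference among signals that the controls also reach.

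**Figure D1:**
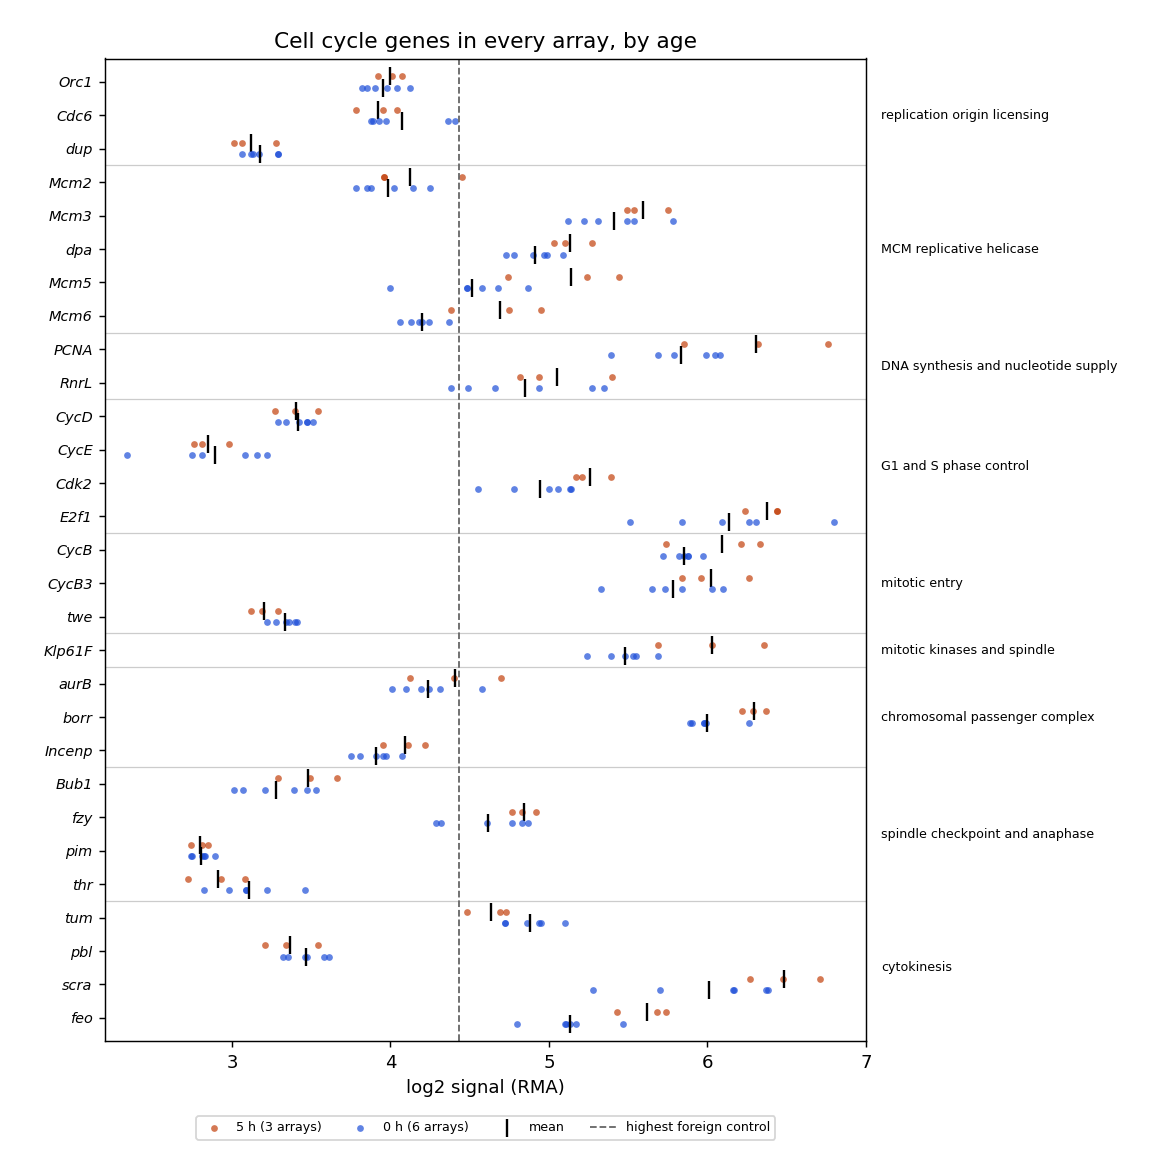
Log2 signal of the 29 genes in each array, with genes grouped by role on the vertical axis, 5 h arrays in orange above 0 h arrays in blue, group means as black ticks and the highest foreign control as a dashed line. The licensing genes lie left of the line at both ages. Every array of Mcm3, dpa, PCNA, Cdk2, E2f1, CycB, CycB3, Klp61F, borr, tum, scra and feo lies right of it.

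In the replicative helicase, the 5 measured MCM subunits all had a higher mean at 5 h, with differences of 0.13 to 0.63, and none passed the test. Mcm5 read 5.44, 4.74 and 5.24 in 5 h replicates 1 to 3, against a lowest of 4.0, a median of 4.53 and a highest of 4.87 at 0 h. At 5 h, replicate 2 lay inside the 0 h range and replicates 1 and 3 above it. The difference was 0.63 ± 0.19 (SE), 1.55-fold, with an adjusted p of 0.149 in limma.

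Mcm6, another subunit of the same ring, read 4.75, 4.38 and 4.95 at 5 h, against a lowest of 4.06, a median of 4.19 and a highest of 4.37 at 0 h. The ages did not overlap, but 5 h replicate 2 cleared the highest 0 h array by only 0.007. Its difference of 0.49 ± 0.13 (SE) had the lowest adjusted p of all 29 genes, 0.0946 in limma. Since the 0 h mean lies under background, no fold against it is stated. The 5 h mean was 1.20-fold over the background level, and 5 h replicate 2, at 4.38, lay under that level. Leaving out 5 h replicate 1, 2 or 3 gave differences of 0.47, 0.65 and 0.37.

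The other MCM subunits differed less. Mcm3 read 5.75, 5.49 and 5.54 at 5 h, against a lowest of 5.12, a median of 5.40 and a highest of 5.78 at 0 h, so the highest array of all belonged to 0 h. Its difference was 0.18 ± 0.15 (SE; adjusted p = 0.544 in limma), and 0.11 without 5 h replicate 1. For dpa, the fly Mcm4, the values were 5.10, 5.03 and 5.27 at 5 h, against 4.73, 4.93 and 5.09 (lowest, median and highest) at 0 h, with a difference of 0.22 ± 0.11 (SE; adjusted p = 0.378 in limma). Replicate 2 of dpa at 5 h lay inside the 0 h range. In Mcm2 the 5 h mean was raised by replicate 1 alone, which read 4.45 beside 3.96 and 3.96, against a lowest of 3.78, a median of 3.95 and a highest of 4.25 at 0 h. Without that array the Mcm2 difference was -0.03.

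PCNA, the sliding clamp that holds DNA polymerase on its template, was above background in every array. It read 6.76, 5.85 and 6.32 at 5 h, against a lowest of 5.39, a median of 5.89 and a highest of 6.08 at 0 h. At 5 h, replicates 1 and 3 exceeded every 0 h array, and replicate 2 lay near the 0 h median. The difference was 0.48 ± 0.20 (SE), 1.39-fold, with an adjusted p of 0.299 in limma. It was 0.25 without 5 h replicate 1 and 0.71 without 5 h replicate 2.

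RnrL, the large subunit of ribonucleotide reductase, which supplies deoxynucleotides, had no settled direction. It read 5.40, 4.82 and 4.94 at 5 h, against a lowest of 4.38, a median of 4.80 and a highest of 5.35 at 0 h. The 0 h arrays held both low and high values, with 4.94 to 5.35 in replicates 1 to 3 and 4.38 to 4.66 in replicates 4 to 6. The difference was 0.21 ± 0.23 (SE; adjusted p = 0.649 in limma) against all 6, and its sign turned with the set of 0 h arrays used. Without single arrays it was 0.03 (5 h replicate 1), 0.32 (5 h replicate 2), 0.13 (0 h replicate 4) and 0.11 (0 h replicate 6).

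Among the licensing genes, all below background, the differences were small. Orc1 differed by 0.05, Cdc6 by -0.15 and dup by -0.06, each with overlapping arrays. The directions of Cdc6 and dup turned under other processing, dup under repeated quantile normalization.

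Of the 4 measured genes that govern the G1 and S phases, Cdk2 and E2f1 were above background. Cdk2, the kinase that cyclin E activates, read 5.39, 5.17 and 5.21 at 5 h, against a lowest of 4.55, a median of 5.03 and a highest of 5.14 at 0 h. The ages did not overlap, with a gap of 0.028 between 5 h replicate 2 and 0 h replicate 2. The difference was 0.31 ± 0.14 (SE; adjusted p = 0.338 in limma). E2f1 read 6.44, 6.24 and 6.44 at 5 h, against a lowest of 5.51, a median of 6.18 and a highest of 6.80 at 0 h. The 5 h arrays sat within the wide 0 h range, and the difference of 0.24 ± 0.22 (SE) had an adjusted p of 0.595 in limma. It was 0.12 without 0 h replicate 4, 0.37 without 0 h replicate 6 and 0.11 after repeated quantile normalization. Neither CycD, at 3.41 at 5 h and 3.42 at 0 h, nor CycE, at 2.85 and 2.89, was above background. Their differences of -0.01 and -0.05 turned positive under repeated quantile normalization.

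Klp61F, the kinesin-5 motor that slides spindle microtubules apart, had the largest difference among the mitotic genes. It read 6.36, 5.69 and 6.03 at 5 h, against a lowest of 5.24, a median of 5.51 and a highest of 5.69 at 0 h. The ages did not overlap, though 5 h replicate 2 lay only 0.003 above 0 h replicate 3. The difference was 0.55 ± 0.15 (SE), 1.46-fold, with an adjusted p of 0.103 in limma. It was 0.38 without 5 h replicate 1 and 0.72 without 5 h replicate 2.

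The B-type cyclins, which activate Cdk1, had smaller differences that did not pass. CycB read 6.33, 5.74 and 6.21 at 5 h, against a lowest of 5.72, a median of 5.86 and a highest of 5.97 at 0 h. Its 0 h arrays were close together, and 5 h replicate 2 fell among them. The difference was 0.24 ± 0.13 (SE; adjusted p = 0.411 in limma). It was 0.12 without 5 h replicate 1, 0.41 without 5 h replicate 2 and 0.12 after repeated quantile normalization. CycB3 read 5.96, 5.84 and 6.26 at 5 h, against 5.33, 5.79 and 6.10 (lowest, median and highest) at 0 h, a difference of 0.24 ± 0.17 (SE; adjusted p = 0.499 in limma). Only its 5 h replicate 3 lay above every 0 h array, and without that array the difference was 0.12, or 0.15 without 0 h replicate 5. The Cdc25 phosphatase gene twe, known for its part in meiosis, was below background and differed by -0.14.

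Of the chromosomal passenger complex, which corrects the attachment of chromosomes to the spindle, only borr (Borealin) was above background. It read 6.37, 6.29 and 6.22 at 5 h, against a lowest of 5.89, a median of 5.98 and a highest of 6.26 at 0 h. One 0 h array, replicate 6, reached the 5 h values, and the other 5 lay below all of them. The difference was 0.29 ± 0.11 (SE), with an adjusted p of 0.245 in limma. The second borr probe set was below background, at 3.25 at 5 h and 3.35 at 0 h, with a difference of -0.10 (adjusted p = 0.70 in limma). The kinase aurB (0.17) and its scaffold Incenp (0.18) also had a higher mean at 5 h, both below background.

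Of the 4 checkpoint and anaphase genes, fzy was the one above background. It read 4.92, 4.77 and 4.83 at 5 h, against a lowest of 4.29, a median of 4.69 and a highest of 4.87 at 0 h, a difference of 0.22 ± 0.15 (SE; adjusted p = 0.484 in limma). The 0 h arrays at the bottom were replicates 5 and 6. The checkpoint kinase gene Bub1 differed by 0.20, the securin gene pim by -0.01 and the separase gene thr by -0.20, with overlapping arrays. The sign of pim turned under repeated quantile normalization and under centring of the arrays.

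The cytokinesis genes differed in direction, and none passed. At 5 h feo, whose product bundles microtubules of the central spindle, read 5.74, 5.43 and 5.68, against a lowest of 4.80, a median of 5.12 and a highest of 5.47 at 0 h. Replicate 6 was the only 0 h array above any 5 h array. The difference was 0.49 ± 0.14 (SE), 1.40-fold, with an adjusted p of 0.122 in limma.

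For scra, the fly anillin that anchors the contractile ring, the 5 h arrays read 6.71, 6.27 and 6.48, against a lowest of 5.28, a median of 6.17 and a highest of 6.38 at 0 h. The low end at 0 h was set by replicates 5 and 4, at 5.28 and 5.70, and 5 h replicate 2 lay among the higher 0 h arrays. The difference was 0.48 ± 0.23 (SE; adjusted p = 0.365 in limma). By contrast tum, a subunit of centralspindlin, read 4.69, 4.48 and 4.73 at 5 h, against a lowest of 4.72, a median of 4.90 and a highest of 5.10 at 0 h. Replicate 3 was the only 5 h array to reach the 0 h range. Of the genes above background, tum was the one with a lower mean at 5 h (-0.25 ± 0.12, SE), with an adjusted p of 0.356 in limma.

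Taken over the list, 0 of 29 genes passed the limma test, beside 1.25% of all 13966 probe sets (1.01% called higher). At an unadjusted p under 0.05 there were 7 genes (Mcm5, Mcm6, PCNA, Cdk2, Klp61F, borr and feo), all with a higher mean at 5 h, beside 2051 of all probe sets. The mean at 5 h was higher for 20 genes and lower for 9, with a median difference of 0.20, beside 36.7% higher and a median of -0.07 over all probe sets. Among the 15 genes above background 14 were higher, with a median of 0.24, beside 3415 of 6757 such probe sets and a median of 0.004. Of the 10 replication genes 8 were higher, with a median of 0.20. Of the 11 mitotic genes 8 were higher, with a median of 0.24. Of the 4 G1 and S phase genes 2 were higher, with a median of 0.11, and of the 4 checkpoint and anaphase genes 2 were, with a median of 0.10. No overlap between the ages, with 5 h on top, was seen for 3 genes (10.3% of 29), beside 5.39% of all probe sets. The 95% intervals of the differences reached 1.05 for Mcm5, 0.87 for Klp61F and 0.92 for PCNA.

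**Figure D2:**
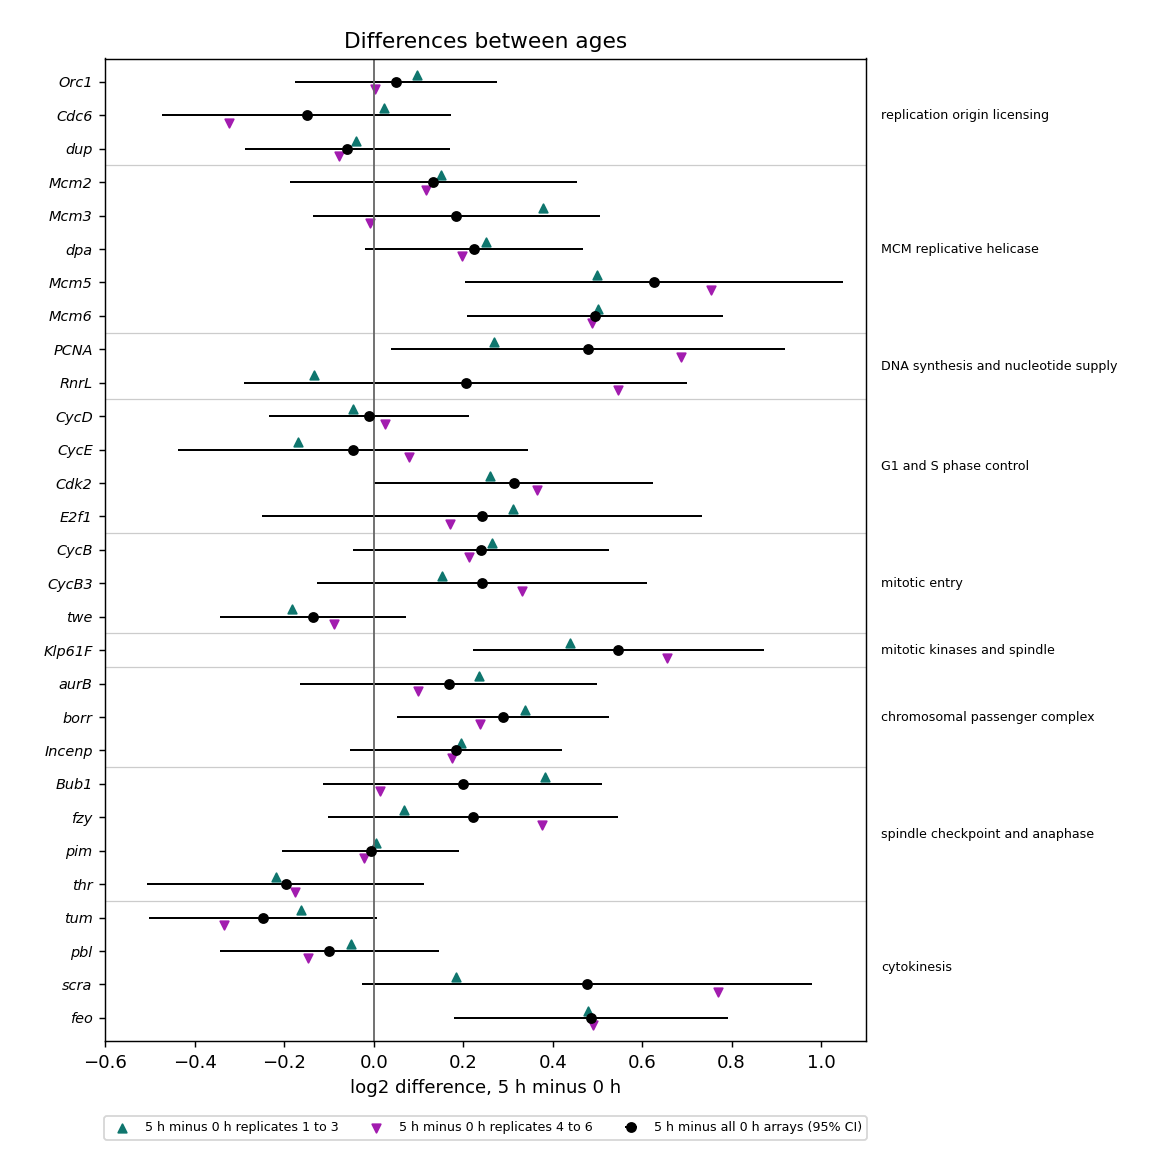
Log2 difference, 5 h minus 0 h, for each gene by role. Black points give the difference against all 6 0 h arrays with its 95% interval, upward triangles the difference against 0 h replicates 1 to 3 and downward triangles that against replicates 4 to 6. The triangles lie far apart for RnrL (-0.13 and 0.54), scra (0.18 and 0.77), PCNA, Mcm3, Bub1, Cdc6 and fzy, and nearly coincide for Mcm6 and feo.

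Which genes passed depended on the set of 0 h arrays. Against 0 h replicates 1 to 3, 4 of 29 genes (13.8%) rose, beside 8.11% of all probe sets called in either direction and 4.37% called higher. They were Mcm3 (0.38, adjusted p = 0.0475), Mcm6 (0.50, adjusted p = 0.0495), borr (0.34, adjusted p = 0.0397) and feo (0.48, adjusted p = 0.0176), all in limma. Against 0 h replicates 4 to 6, 5 of 29 (17.2%) rose, beside 22.0% called in either direction and 12.5% called higher. Those were Mcm5 (0.75, adjusted p = 0.0316), PCNA (0.69, adjusted p = 0.043), RnrL (0.54, adjusted p = 0.0395), Klp61F (0.65, adjusted p = 0.023) and scra (0.77, adjusted p = 0.029), again in limma. Both comparisons use the same 5 h arrays, and no gene was in both groups of calls. Mcm6 and feo missed the threshold narrowly against replicates 4 to 6, with adjusted p of 0.0539 and 0.0664 in limma.

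Side by side, the difference against replicates 1 to 3 and then against replicates 4 to 6 was 0.50 and 0.49 for Mcm6, 0.48 and 0.49 for feo, 0.44 and 0.65 for Klp61F, and 0.50 and 0.75 for Mcm5. These 4 genes kept much of their difference against either set. PCNA gave 0.27 and 0.69, scra 0.18 and 0.77, and RnrL -0.13 and 0.54, so their calls rested on the lower set of 0 h arrays. Mcm3 gave 0.38 and -0.01, the other way round. With the ungrouped array counted as 5 h, 2 genes (Mcm6 and Klp61F) passed, beside 2.52% of all probe sets, and with arrays weighted by their quality 4 did (borr, Bub1 and feo higher, thr lower), beside 13.0%.

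The 5 h arrays themselves differed in these genes. Among the 15 above background, 5 h replicate 1 was the highest of the 3 arrays at 5 h in 12 (80.0%), beside 35.3% of all probe sets above background. Replicate 2 at 5 h was the lowest of them in 14 (93.3%), beside 28.8%. Averaged over the 15 genes, the deviation from each gene's mean over 9 arrays was 0.37, 0.00 and 0.24 in 5 h replicates 1 to 3, and between -0.24 and 0.00 in the 0 h arrays. Over all 6757 probe sets above background the same average was 0.03, 0.05 and 0.08 at 5 h, and between -0.20 and 0.08 at 0 h. The median SD over the 5 h arrays was 0.17 for these 15 genes and 0.12 for all probe sets above background. At 0 h the 2 lowest averages were those of replicate 4 (-0.24) and replicate 5 (-0.22), which were also the 2 lowest over all probe sets above background (-0.20 and -0.09).

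**Figure D3:**
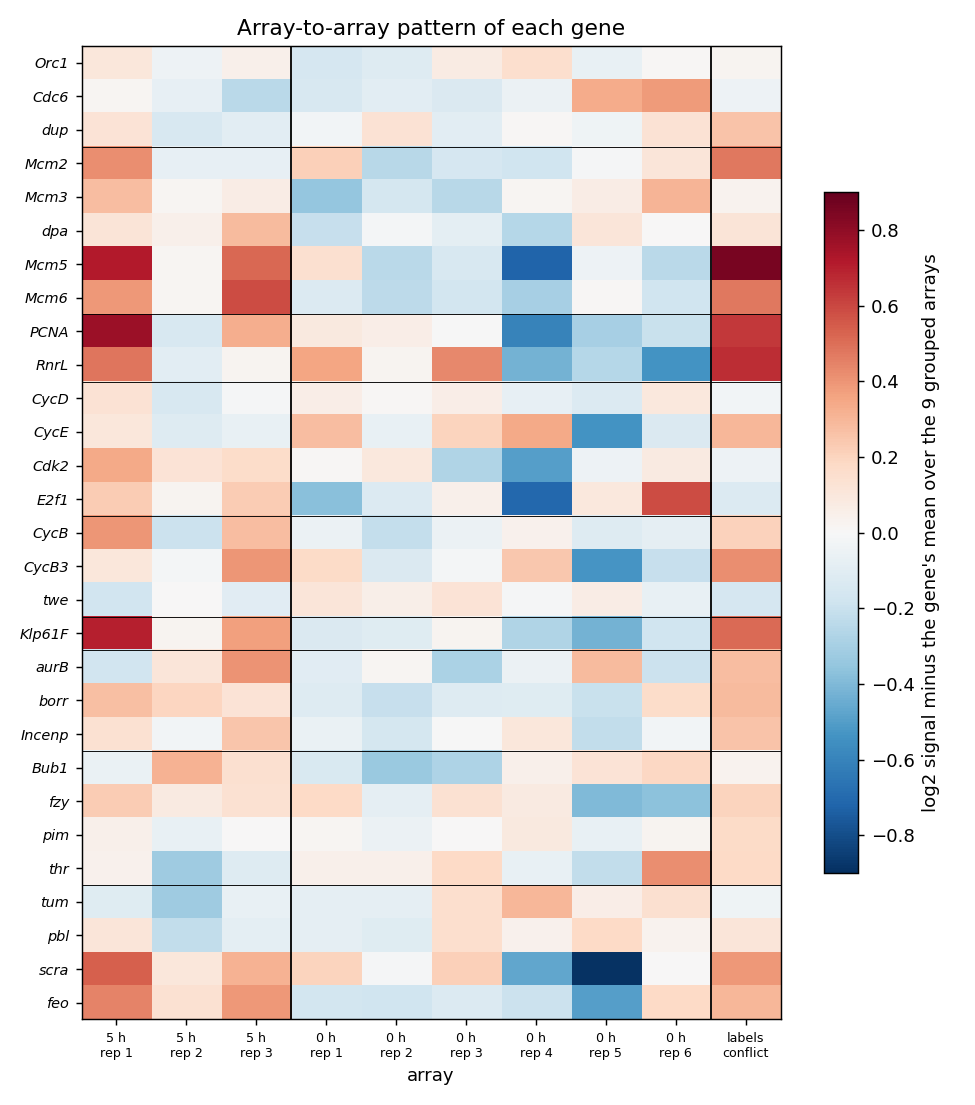
Heat map of the log2 signal of each gene (rows, by role) in each array (columns), less the gene's mean over the 9 grouped arrays; red is above that mean and blue below. The columns of 5 h replicates 1 and 3 are red for Mcm5, PCNA, Klp61F, scra and feo, the column of 5 h replicate 2 is pale, and the last column is the array whose labels name both ages.

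Other genes of the same pathways, listed apart from the 29, also gave no call. Of 29 other replication genes 0 passed limma and 1 had an unadjusted p under 0.05. The mean at 5 h was higher for 17 of them, with a median of 0.07. The largest difference was that of DNAlig1, the ligase that seals Okazaki fragments, at 6.46 ± 0.15 in the 3 arrays at 5 h, against 5.65 ± 0.38 in the 6 at 0 h (SD), 0.81 higher with an adjusted p of 0.0767 in limma. The clamp loader genes RfC3 (0.41) and RfC38 (0.40) came next. Of 13 other G1 and S phase genes 0 passed, 2 had an unadjusted p under 0.05 and 7 were higher, with a median of 0.03. E2f2, a repressor of the E2F family, read 6.90 ± 0.14 in the 3 arrays at 5 h, against 6.04 ± 0.43 in the 6 at 0 h (SD), 0.86 higher with an adjusted p of 0.0851 in limma, followed by rux (0.34) and Cdk7 (0.32). Of 45 other mitotic genes 0 passed, 7 had an unadjusted p under 0.05 and 28 were higher, with a median of 0.11. The checkpoint kinase gene grp (0.78, adjusted p = 0.148), dia (0.67, adjusted p = 0.411) and Septin1 (0.61, adjusted p = 0.296, all limma) had the largest differences. Against 0 h replicates 1 to 3 and replicates 4 to 6, the genes called were 2 and 3 in the replication list, 3 and 3 in the G1 and S phase list, and 2 and 14 in the mitotic list, beside 8.11% and 22.0% of all probe sets. The genes dia and Septin1 also serve the cytoskeleton of cells that do not divide.

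Markers of the captured cells and of other cells were read on the same arrays. Among 10 mushroom body neuron genes toy rose (1.06, adjusted p = 0.0375 in limma), and among 6 pan-neuronal genes elav rose (5.06 at 5 h, against 4.20, below background, at 0 h, adjusted p = 0.0333 in limma). Of those lists 3 and 0 genes were below background at both ages. The mean at 5 h was higher for 6 of 10 mushroom body neuron genes, with a median difference of 0.09. It was higher for 6 of 6 pan-neuronal genes, with a median of 0.29. In each of these lists 2 and 1 genes were called against 0 h replicates 1 to 3 and 4 to 6, beside 8.11% and 22.0% of all probe sets. The mushroom body genes with the highest means, rut (10.53 at 5 h and 10.29 at 0 h) and ey (9.22 and 9.32), were above background at both. Of 12 measured neuroblast and ganglion mother cell genes 0 passed and 0 had an unadjusted p under 0.05, while 1 and 3 of 12 were called against 0 h replicates 1 to 3 and 4 to 6, beside 8.11% and 22.0% of all probe sets. In that list 3 were higher and 9 lower at 5 h, with a median of -0.11. Their mean level was 4.46 to 4.65 over the 5 h arrays and 4.54 to 4.69 over the 0 h arrays. The genes insc, ase, grh, klu and cas of that list were below background at both ages. In that list stau read 7.03 ± 0.06 at 5 h and 7.49 ± 0.60 at 0 h, and mira read 6.59 ± 0.55 and 6.0 ± 0.44 (SD, n = 3 and 6).

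In mira, whose product carries fate determinants into the ganglion mother cell, the 5 h arrays read 7.06, 5.98 and 6.73 in replicates 1 to 3, the same order as in PCNA, Mcm5 and Klp61F. Mcm6 and dpa were instead highest in replicate 3. The neuroblast factor wor read 4.49, 4.42 and 4.49, which is close to background, against a lowest of 4.41 and a highest of 4.94 at 0 h. Both wor and dpn, and the genes plotted against PCNA, were picked after their values were seen. Mcm5 and Klp61F were the 2 measured genes whose deviations from the age means were most like those of PCNA (Pearson r of 0.85 and 0.86 over the same 9 arrays, a description). Of the 14 other genes above background 3 reached an r of 0.7, beside 3.7% of all 6757 probe sets above background. Mcm3 (-0.15), tum (-0.20), borr (0.03) and CycB3 (0.08) did not follow PCNA. Of the 12 measured neuroblast and ganglion mother cell genes, only mira, pros, wor, dpn and ase were compared singly in this way. The r was 0.76 for mira and 0.54 for pros. It was -0.41 for wor, -0.49 for dpn and -0.61 for ase. For the mean of all 12 it was 0.44. With the average of the 15 cell cycle genes above background, that mean had an r of 0.62. The glial and fat body lists, described below, had 0.63 and 0.59, and the other marker lists -0.24 to 0.02. Neither wor (-0.26, adjusted p = 0.389) nor dpn (-0.10, adjusted p = 0.737, both limma) was higher at 5 h. The part of neuroblasts or ganglion mother cells in the cell cycle values was not tested.

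**Figure D4:**
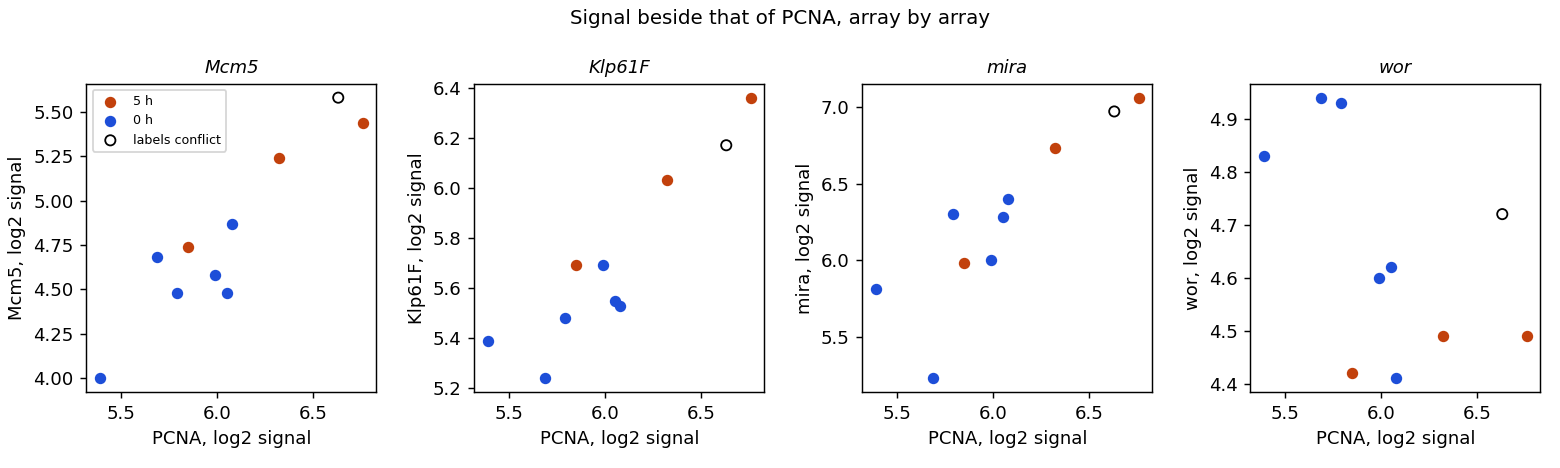
Log2 signal of Mcm5, Klp61F, mira and wor (vertical axes) against that of PCNA (horizontal axes) in each array, 5 h in orange, 0 h in blue and the array with conflicting labels as an open circle. The 5 h arrays with most PCNA, at 6.76 and 6.32, also have most Mcm5, Klp61F and mira, whereas wor stays at 4.42 to 4.49 in all 3.

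Other cell types varied between the same arrays. Of 9 glial genes nrv2 (5.50 at 5 h, against 4.22 at 0 h, adjusted p = 0.0178) and bdl (6.26, against 4.42, adjusted p = 0.000684, both limma) rose, each with a 0 h mean below background. In that list 5 genes had an unadjusted p under 0.05, beside 2051 of 13966 probe sets. Against 0 h replicates 1 to 3 and 4 to 6, 2 and 6 of the 9 were called, beside 8.11% and 22.0% of all probe sets. The mean at 5 h was higher for 5 of them and lower for 4, with a median difference of 0.23. The mean of the list was 5.64 to 5.81 at 5 h and 4.90 to 5.39 at 0 h. The 3 fat body genes (Lsp2, Fbp1 and Fbp2) averaged 7.85, 5.86 and 7.78 in 5 h replicates 1 to 3 and 5.81 to 9.24 at 0 h, with 0 called and 0 at an unadjusted p under 0.05. Their low array at 5 h, replicate 2, was also the low array of the cell cycle genes. It was the low array of the neuroblast and ganglion mother cell list as well, at 4.65, 4.46 and 4.58 in 5 h replicates 1 to 3. At 0 h the fat body genes were lowest in replicate 5 (5.81) and highest in replicate 2 (9.24). In those 2 arrays the average deviation of the 15 cell cycle genes above background was -0.22 and -0.09. The lists for hemocytes (3.68 to 3.76 at 5 h and 3.44 to 3.65 at 0 h) and salivary gland (3.38 to 3.52 at 5 h and 3.55 to 5.26 at 0 h) had 0 genes called, with 1 and 0 at an unadjusted p under 0.05. The salivary gland value of 5.26 was that of 0 h replicate 2 alone. Against 0 h replicates 1 to 3 and 4 to 6, 1 and 3 of 6 hemocyte genes were called. For salivary gland the calls were 0 and 1 of 7, beside 8.11% and 22.0% of all probe sets. With the actin 3′ bias as a covariate, 0 of 29 cell cycle genes and 0 of all probe sets passed limma, with 2 and 552 at an unadjusted p under 0.05, and the members' median was 0.19. The bias did not overlap between the ages, at 8.465 to 8.627 at 5 h and 7.452 to 8.101 at 0 h. Age and bias therefore cannot be told apart in that fit. With the covariate the differences of Mcm5 (0.14), Mcm6 (0.32) and PCNA (0.27) were smaller than without it. Those of feo (0.82), Klp61F (0.62), scra (0.55), CycB3 (0.55) and Mcm3 (0.53) were larger. The part of glia, fat body and RNA quality in the cell cycle values was not tested.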

How the data were processed

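RNA of laser-captured mushroom body neurons, about 22 ng per sample, was amplified in 2 rounds, per the labels' protocols, and each sample was hybridised to 1 Affymetrix Drosophila array. Per the submitters' processing notes, the authors used Affymetrix Expression Console and RMA, which gives 1 value per probe set. These deposited values are log2 signals. RMA and amplification can compress differences and carry 3′ bias. An array gives no count of molecules, so the number of arrays limits the precision.

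Of 14010 probe sets in the table, 44 Affymetrix controls were left out and 13966 were tested. The platform annotation gave 1 gene symbol for 12443 of them, several for 327 and none for 1196. A gene was named only from probe sets with 1 symbol. Samples were grouped by age and replicate number in their labels, with 3 arrays at 5 h and 6 at 0 h. One array whose title and age disagree was kept out. No 2 arrays were alike: their log2 differences over probe sets had an SD of 0.173 or more. The ages were compared on the deposited values with limma 3.58.1 (lmFit, then eBayes, two-sided; R 4.3.3). P-values were adjusted over the 13966 probe sets by Benjamini-Hochberg, with a threshold of 0.05. These steps were also tested on simulated data.

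The members and the lists of pathway and marker genes were chosen with earlier results of these data known, so the list has no test of its own. All members are described. Of the other pathway genes the 3 with the largest absolute differences per list are named, and of the marker lists the genes called or with the highest means. The other markers were named after their values were seen. Alternatives were each set of 0 h arrays, both placings of the ungrouped array, other normalizations and priors, a filter on dim probe sets, array weights, the actin 3′ bias as a covariate, a replicate block, each array left out, other background levels and averaging over the probe sets of a gene. Using the mouse and yeast controls alone as background was chosen after seeing the data.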

Additional observations from a re-analysis of the deposited data

Results flagged for a closer look

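Among the 29 genes tested in this way in the 6 arrays at 0 h, 1 had an array far from the others. In borr (Borealin), 0 h replicate 6 read 6.26, while the other 0 h arrays read 5.89 to 5.99. The gap to the nearest array was 0.728 of the whole range, above Dixon's critical value for 6 samples at the 0.05 level. Chance flags about 1 in 20 such groups. Without that array the borr difference, 5 h minus 0 h, was 0.34 with an adjusted p of 0.119 in limma, against 0.29 and 0.245 with it.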

How the results depend on the processing

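The count of 0 cell cycle genes past the threshold held when the ungrouped array was counted as 0 h, with dim probe sets left out, repeated quantile normalization, median centring, a trended and robust prior, the 3′ bias covariate, averaging over the probe sets of a gene, and without any 1 array. It became 4 against 0 h replicates 1 to 3, 5 against replicates 4 to 6, 2 with the ungrouped array as 5 h and 4 with array weights. In those 4 settings the calls over all probe sets were 1132, 3077, 352 and 1809. With the ungrouped array as 0 h or with the 3′ bias covariate they were 0 (1693 and 552 at an unadjusted p under 0.05), and without each array in turn 19 to 395, lowest without 5 h replicate 3. The bias went with age, so the count of 0 under its covariate says little about the members. The cause of the changes in count was not tested. The members' median difference was 0.16 to 0.26 throughout, except 0.14 with array weights. Against the median of the foreign controls, 26 genes were above background at 5 h and 27 at 0 h.

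With the replicate number as a block over replicates 1 to 3 of both ages, 2 cell cycle genes passed (Mcm5 and feo), beside 743 of 13966 probe sets. Deviations of same-numbered arrays had correlations of -0.333, -0.133 and -0.233 across probe sets, beside -0.119 to 0.334 for arrays with other numbers. These deviations are from means of 3 arrays, so they cannot show whether same-numbered samples were collected together. The main fit used no pairing.

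Directions turned for 9 genes, 7 of them below background. Against 0 h replicates 1 to 3, Cdc6 was 0.02, pim 0.01 and RnrL -0.13, and the replicate block gave these 3 values again. Against replicates 4 to 6, Mcm3 was -0.01, CycD 0.03 and CycE 0.08. With the ungrouped array as 5 h, dup was 0.02, CycE 0.04 and pim 0.04. Repeated quantile normalization gave dup 0.04, CycD 0.07, CycE 0.03 and pim 0.08, and centring gave CycD 0.03 and pim 0.04. RnrL was -0.16 with array weights. With the 3′ bias covariate, RnrL was -0.41, dup 0.16, CycD 0.05, CycE 0.27, pim 0.10 and thr 0.03. Without each array in turn, Mcm2 was -0.03 to 0.21, CycD -0.08 to 0.06, CycE -0.16 to 0.02 and pim -0.03 to 0.02.

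Signal under the background level, which a single control set, limits what 13 of the 29 genes can show. The rest are limited by 3 arrays at 5 h, of which replicate 2 stood lowest in most genes above background.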

Other observations

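The array whose title gives 5 h and whose age and description give 0 h was placed in no group. It read 6.63 for PCNA, 5.58 for Mcm5, 4.84 for Mcm6, 5.58 for RnrL, 6.17 for Klp61F, 6.56 for scra, 5.59 for feo and 6.38 for borr. For 16 of the 29 cell cycle genes (55.2%) its value lay above every 0 h array, beside 11.7% of all probe sets, and for 12 (41.4%) above every 5 h array, beside 28.2%. It was nearer the 5 h mean for 20 of 29 genes, and for 8564 of 13966 probe sets. Its mira value was 6.97, its glial list averaged 5.82 and its fat body list 8.34.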
